A study of Homo sapiens with 7 samples.

Results

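The 43 genes described here encode nuclear receptors other than the estrogen receptor ESR1 and the progesterone receptor PGR. They were examined through the loops that H3K27ac HiChIP placed at their promoters in 3 human cancer cell lines. HiChIP joins DNA ends that lie close together in the nucleus and enriches the joined fragments with an antibody, here against acetylation of lysine 27 of histone H3 (H3K27ac), a mark of active promoters and enhancers. A loop is a pair of different anchors on 1 chromosome, and its value is the number of read pairs that join them. A loop counted for a receptor when an anchor lay over a window of 500 bp centred on any of its annotated start sites. Of the 43 receptors, 36 had such a loop in at least 1 list. These loops numbered 267 of the 163530 in the Ishikawa list, 292 of 42027 for T-47D and 354 of 149226 for LNCaP.

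Ishikawa is a line of endometrial adenocarcinoma, T-47D of breast ductal carcinoma and LNCaP of prostate carcinoma. All were grown in RPMI with 10% fetal bovine serum, and for estrogen inductions the study's methods describe a prior change to hormone-depleted medium with charcoal-stripped serum. The 4 Ishikawa samples received either 10 nM 17β-estradiol (E2, 2 samples) or the vehicle DMSO (2 samples) for 1 h, and the labels give no treatment for the 1 T-47D and 2 LNCaP samples. The deposited loops form 1 list per line, with treatments and replicates combined, which leaves the values without an error between replicates and the lines without a test. Ishikawa libraries were cut with DpnII and the others with MboI, and sonication, read length and depth followed the same split, so these cannot be told apart from the cell line in any comparison with Ishikawa. The lists held 1040329 read pairs in Ishikawa against 351260 in T-47D and 1805322 in LNCaP, and values are given as read pairs and as RPM (read pairs per-million read pairs of the list). Listed loops spanned 5 to 1999 kb in LNCaP, against 2.87 to 218023 kb in Ishikawa and 1.82 to 191003 kb in T-47D. Intervals are 95% intervals that cover counting error only. A value of 0 says that no loop with at least 3 read pairs was listed, not that no contact was made. Ishikawa values are summed over 4 parts of its list, and no receptor listed in a part had fewer than 3 read pairs there. The minimum may therefore apply within each part, which would be a stricter limit for Ishikawa than for the other lists. Where a list had 0, ratios were formed with 3 read pairs in its place and are given as limits (at least or at most). Unlisted loops could together hold more than 3, so these limits hold for listed read pairs and not for contacts.

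Nuclear receptors are transcription factors, many of which are switched by a small lipid-soluble ligand. Steroid receptors bind DNA mostly as pairs of themselves. The receptors for thyroid hormone, retinoic acid, vitamin D, fatty acids and oxysterols instead pair with a retinoid X receptor (RXR), and both partners read copies of the core motif AGGTCA set at a fixed spacing. REV-ERB and ROR receptors act in the circadian clock, and orphan receptors have no established ligand or were named before one was known. Endometrium, breast and prostate are all hormone-responsive epithelia, and members of the family cross-talk with estrogen and androgen signalling there.

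Several receptors have alternative promoters, and the lists differed in which of them had loops. The sequences below are RefSeq promoters (GRCh38.p14), each of 300 bases around a start site and written 5′ to 3′ on the gene's strand. They were placed on GRCh37 by exact match, and capitals mark the core motif AGGTCA on either strand. Those of RARA, RXRA and PPARG are shown because the lines differed in which of them an anchor covered.
RARA upstream promoter, chr17:38465182-38465481: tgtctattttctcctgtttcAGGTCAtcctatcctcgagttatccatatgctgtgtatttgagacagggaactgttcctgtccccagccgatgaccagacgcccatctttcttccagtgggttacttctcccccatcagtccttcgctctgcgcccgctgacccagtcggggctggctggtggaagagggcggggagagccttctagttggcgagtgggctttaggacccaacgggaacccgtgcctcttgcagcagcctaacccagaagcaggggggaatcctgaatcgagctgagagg
RARA middle promoter, chr17:38474247-38474546: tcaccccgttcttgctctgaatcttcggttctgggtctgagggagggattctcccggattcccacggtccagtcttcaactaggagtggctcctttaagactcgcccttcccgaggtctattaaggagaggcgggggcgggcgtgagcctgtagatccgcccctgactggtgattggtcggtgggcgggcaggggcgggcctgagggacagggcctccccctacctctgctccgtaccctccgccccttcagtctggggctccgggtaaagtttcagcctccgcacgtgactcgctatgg
RARA downstream promoter, chr17:38498168-38498467: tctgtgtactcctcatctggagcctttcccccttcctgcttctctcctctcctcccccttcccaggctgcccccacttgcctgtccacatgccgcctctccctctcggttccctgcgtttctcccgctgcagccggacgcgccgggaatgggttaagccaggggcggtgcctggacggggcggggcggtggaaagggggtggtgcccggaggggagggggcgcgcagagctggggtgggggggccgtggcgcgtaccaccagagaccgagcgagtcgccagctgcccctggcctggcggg
RXRA upstream promoter, chr9:137218051-137218350: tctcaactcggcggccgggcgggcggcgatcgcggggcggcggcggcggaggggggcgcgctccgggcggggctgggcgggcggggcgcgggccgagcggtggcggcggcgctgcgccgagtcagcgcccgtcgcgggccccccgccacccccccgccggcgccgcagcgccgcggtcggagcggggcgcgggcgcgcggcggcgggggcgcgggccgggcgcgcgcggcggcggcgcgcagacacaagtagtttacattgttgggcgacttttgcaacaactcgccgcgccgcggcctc
RXRA inner promoter, chr9:137270891-137271190: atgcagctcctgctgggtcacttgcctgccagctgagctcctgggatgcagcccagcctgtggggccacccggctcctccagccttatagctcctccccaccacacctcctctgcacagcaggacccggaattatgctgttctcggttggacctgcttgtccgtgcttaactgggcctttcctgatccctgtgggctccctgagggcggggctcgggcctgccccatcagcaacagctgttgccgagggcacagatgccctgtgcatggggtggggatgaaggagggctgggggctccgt
PPARG upstream promoter, chr3:12328617-12328916: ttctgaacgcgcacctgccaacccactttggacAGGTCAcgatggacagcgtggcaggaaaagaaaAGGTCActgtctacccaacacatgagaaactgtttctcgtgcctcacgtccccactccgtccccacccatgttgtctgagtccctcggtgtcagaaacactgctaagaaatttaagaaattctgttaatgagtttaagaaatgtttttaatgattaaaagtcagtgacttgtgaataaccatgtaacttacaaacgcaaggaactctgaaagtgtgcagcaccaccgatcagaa
The anchor over the upstream RARA promoter carried 406 read pairs in T-47D against 79 in Ishikawa, and no LNCaP anchor with a loop covered it. The anchor over the middle promoter carried 79 in Ishikawa against 737 in T-47D and 79 in LNCaP, and in Ishikawa this was the same wide anchor as for the upstream promoter. The downstream promoter had 21 read pairs in LNCaP, at chr17:38496132-38499532, and none in the other lists. A T-47D anchor directly beside it, chr17:38499533-38501692, lay over another RARA start site and carried 84. The upstream RXRA promoter, with a GC content of 84% and 65 CpG dinucleotides, had 113 read pairs in T-47D and 155 in LNCaP. The inner RXRA promoter, with a GC content of 64.7% and 8 CpG dinucleotides, had 590 in LNCaP alone. The PPARG promoter held 2 core motifs and had 39 read pairs, all in Ishikawa. The core motif stood in 15 of 86 receptor promoters (17.4%) from the 38 receptors matched, against 13.8% of 35116 promoters in the table. A match is a description of letters and not a bound site.

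A promoter loop was listed for 27 receptors in Ishikawa (62.8%), for 26 in T-47D (60.5%) and for 27 in LNCaP (62.8%). Among all 20163 protein-coding genes these shares were 57.3%, 49.2% and 58.1%. Receptor loops held 1965 read pairs in Ishikawa against 2856 in T-47D and 4293 in LNCaP, which was 0.189%, 0.813% and 0.238% of the lists. RARA alone accounted for 1131 of the T-47D read pairs. In all 3 lists, loops were found for 16 receptors (33.4% of all genes had this pattern). No list (all genes, 24.1%) had a loop for ESRRB, RXRG, NR1H4 (the bile acid receptor FXR), NR1I3, HNF4A, HNF4G or NR0B2, and the last 5 are best known from liver or gut. Loops were listed in Ishikawa alone (all genes, 12.9%) for ESRRG, RORA, RORB, NR1I2, NR2E1 and NR2E3, and in T-47D alone (2.09%) for NR2F1 and NR5A1. No receptor had loops in LNCaP alone, whereas 5.62% of all genes did. RXRA, NR1D1, NR1H2, NR2F2, NR4A3, NR5A2 and NR6A1 had loops in T-47D and LNCaP but not in Ishikawa (all genes, 10.9%). Ishikawa and LNCaP without T-47D (8.18%) were the lists of NR3C2, RARB, PPARG and NR2F6, and Ishikawa and T-47D without LNCaP (2.83%) those of NR3C1.

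**Figure D1:**
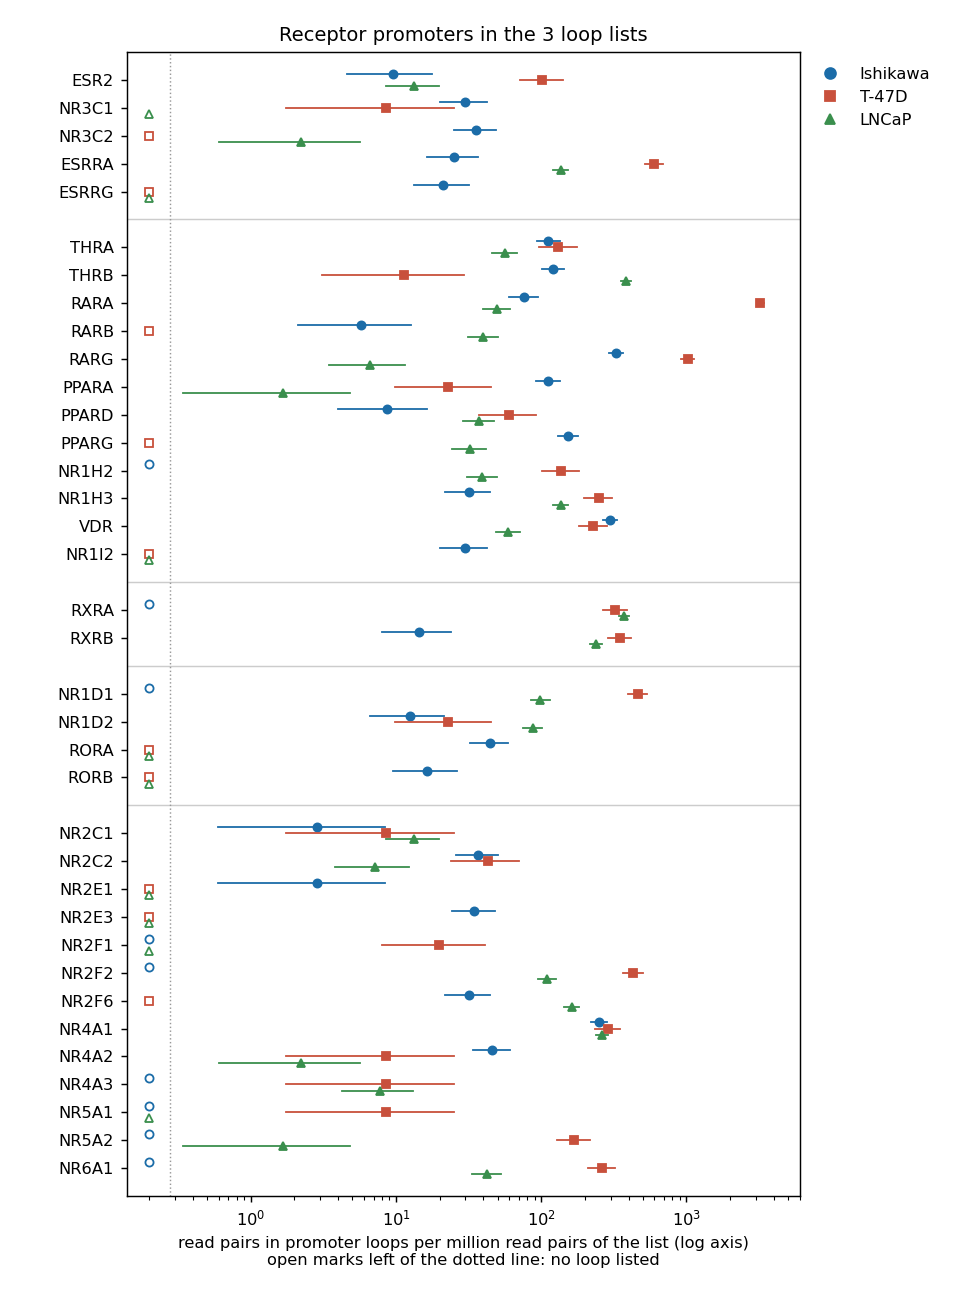
RPM in promoter loops (log axis) for the 36 receptors with a loop, by list, with exact 95% Poisson intervals for counting error. Blocks from the top are steroid and estrogen-related receptors, RXR partners, RXRs, clock receptors and orphan receptors. Open marks at the left are receptors without a listed loop. RARA in T-47D, at 3220 RPM, stands at the far right, and the NR4A1 marks of the 3 lists lie together.

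Lists were compared in pairs by the ratio of their shares, with a count under 3 set to 3, and a receptor was called when the ratio reached 4 and the list with the higher share held at least 20 read pairs. T-47D exceeded LNCaP in 7 of the 22 receptors tested, namely ESR2, ESRRA, RARA, RARG, NR1D1, NR5A2 and NR6A1, and among all genes 18.7% of 9134 were called in this direction. LNCaP exceeded T-47D in 3 of 22, namely THRB, RARB and NR2F6, against 16.8% of all genes. Ishikawa exceeded T-47D in 7 of 27 (all genes, 20%), and T-47D exceeded Ishikawa in 12 of 27 (all genes, 44.4%). Ishikawa exceeded LNCaP in 12 of 30 (all genes, 22.2%), and LNCaP exceeded Ishikawa in 13 of 30 (all genes, 46.5%). The median log2 ratio over all genes tested was -0.08 for T-47D over LNCaP, -1.33 for Ishikawa over T-47D and -1.67 for Ishikawa over LNCaP. Receptor medians were 1.04, -0.22 and -0.27. With shares taken among the loops within 5 Mb of the gene, the calls of T-47D over LNCaP kept ESR2, RARA, RARG and NR5A2, and those of LNCaP over T-47D kept THRB and NR2F6 and gained RXRA and PPARG. Of the calls that involve Ishikawa, this local share kept 3 of 7, 9 of 12, 9 of 12 and 8 of 13, in the order above, and added ESRRG, NR2F6 and NR3C1 to those of Ishikawa over T-47D. Relative to the median of all genes, Ishikawa exceeded T-47D in 11 of 27 receptors (all genes, 36.9%) and LNCaP in 14 of 30 (all genes, 31.3%).

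The steroid and estrogen-related receptors carried few loops, apart from ESRRA. ESR2, the second estrogen receptor, had 10 read pairs in Ishikawa (9.61 RPM), 36 in T-47D (102 RPM) and 24 in LNCaP (13.3 RPM). Its share in T-47D was 7.71-fold that in LNCaP (interval 4.47 to 13.5) and 10.7-fold that in Ishikawa (5.18 to 24.1). The strongest ESR2 loop in T-47D held 9 read pairs and ran 166 kb upstream to the promoters of ZBTB1 and ZBTB25. NR3C1, the glucocorticoid receptor, had 31 read pairs in Ishikawa against 3 in T-47D and 0 in LNCaP. Its share in Ishikawa was at least 17.9-fold that in LNCaP. NR3C2, the mineralocorticoid receptor, had 37 read pairs in Ishikawa against 0 in T-47D and 4 in LNCaP, and all 8 partners of its Ishikawa promoter anchors were distal, that is, held no protein-coding promoter. Both corticoid receptors thus had their highest share in Ishikawa, but the NR3C1 ratio over T-47D, 3.49 (1.09 to 17.8), was not called. ESR2 had its highest share in T-47D, and its ratio of Ishikawa over LNCaP, 0.723 (0.309 to 1.57), was not called. The NR3C2 ratio of Ishikawa over T-47D had a lower limit of 2.06 on the log2 scale. Within 5 Mb of the gene T-47D held only 136 read pairs, and the lower limit there, -1.27, gives no direction.

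ESRRA, an estrogen-related receptor that drives mitochondrial genes, had 26 read pairs in Ishikawa (25 RPM), 210 in T-47D (598 RPM) and 246 in LNCaP (136 RPM). T-47D exceeded LNCaP 4.39-fold (3.63 to 5.3) and Ishikawa 23.9-fold (15.9 to 37.5), but with shares taken within 5 Mb these ratios were 1.87 and 3.16. Its anchors also lay over the promoters of TRMT112, PRDX5 and CATSPERZ, so its loops cannot be assigned to ESRRA alone. ESRRG had 22 read pairs in Ishikawa and no listed loop elsewhere, at least 12.7-fold above LNCaP.

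Among the retinoic acid receptors, RARA and RARG were highest in T-47D and RARB in LNCaP. RARA, at chr17:38465432-38513895, had 79 read pairs in Ishikawa (75.9 RPM), 1131 in T-47D (3220 RPM, the 4th highest of all genes in that list) and 89 in LNCaP (49.3 RPM). T-47D thus stood far above the other lists, 65.3-fold above LNCaP (52.6 to 82) and 42.4-fold above Ishikawa (33.7 to 54). With shares taken within 5 Mb these ratios were 16.8 and 10.5. In T-47D, 87 loops left 4 RARA anchors, to 18 distal anchors and 21 partners over promoters. The strongest of them, with 182 and 145 read pairs, joined neighbouring RARA start sites 6.43 and 5.65 kb apart, and loops between RARA start sites held 432 read pairs in all (38.2%). The Ishikawa anchor, chr17:38464584-38480712, spanned the anchors of both these loops. The LNCaP anchor at chr17:38466858-38475627 overlapped both anchors of the first. Contacts inside an anchor are not counted as loops, so the RARA ratios depend on anchor width. An intronic anchor at chr17:38485810-38487830 had 166 read pairs to the RARA start sites in T-47D. An overlapping anchor had 46 read pairs in LNCaP and 24 in Ishikawa, so the intronic contact was listed in every line. In LNCaP it was the partner of the strongest RARA loop, with 36 read pairs. In Ishikawa the strongest loop, with 31, joined RARA to the promoter anchor of CDC6, a gene of DNA replication licensing.

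RARG, the retinoic acid receptor prominent in skin, had 341 read pairs in Ishikawa (328 RPM), 359 in T-47D (1022 RPM) and 12 in LNCaP (6.65 RPM). T-47D exceeded LNCaP 154-fold (86.9 to 300) and Ishikawa exceeded LNCaP 49.3-fold (27.9 to 96.4), whereas T-47D and Ishikawa differed 3.12-fold (2.68 to 3.63). Within 5 Mb these ratios were 71.3, 18.8 and 3.79. In both lists the strongest RARG loop joined its start-site anchors, with 81 read pairs in T-47D against 45 in Ishikawa. RARB, a retinoic acid target often silenced in carcinomas, had 6 read pairs in Ishikawa against 0 in T-47D and 72 in LNCaP. Its share in LNCaP was at least 4.67-fold that in T-47D (at least 1.27-fold within 5 Mb) and 6.92-fold that in Ishikawa (3.03 to 19.5). The RARB loops of the 2 lines did not start from the same place. The 2 LNCaP anchors lay 740 and 599 kb upstream of the canonical start site, and the Ishikawa anchor lay over the canonical start site. With the canonical start site alone Ishikawa had 6 read pairs and LNCaP 0, a log2 ratio of Ishikawa over LNCaP of at least 1.80.

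Of the RXRs, the shared partners, RXRG had no loop in any list. RXRA had none in Ishikawa, and RXRB had its lowest share there, where 64.4% of all genes had fewer read pairs than RXRB. RXRA, at chr9:137208944-137332431, had 0 read pairs in Ishikawa, 113 in T-47D (322 RPM) and 669 in LNCaP (371 RPM). Its share was at least 112-fold lower in Ishikawa than in T-47D and at least 129-fold lower than in LNCaP, and the T-47D to LNCaP ratio was 0.868 (0.705 to 1.06). Within 5 Mb these were at least 26.1-fold, at least 119-fold and 0.218. The route differed between those lines. In T-47D all 15 loops left the upstream start site, the strongest with 35 read pairs to an intronic anchor 28.1 kb downstream. In LNCaP the anchor over inner start sites, 27.6 kb wide, held 590 read pairs, and its strongest loop, with 168, ran to a further intronic anchor 40.8 kb away. The same wide LNCaP anchor covered the T-47D intronic anchors at chr9:137245153-137251470 and chr9:137255655-137259340, which were narrow and held no start site. The count at the inner start sites therefore depends on anchor width. RXRB had 15 read pairs in Ishikawa (14.4 RPM), 122 in T-47D (347 RPM) and 430 in LNCaP (238 RPM). Ishikawa was 24.1-fold below T-47D (14 to 44.4) and 16.5-fold below LNCaP (9.9 to 29.8), or 8.78-fold and 9.18-fold within 5 Mb. The RXRB anchors also covered the SLC39A7 promoter, and in LNCaP those of HSD17B8 and RING1 as well.

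The thyroid hormone receptors differed from each other. THRA had 117 read pairs in Ishikawa (112 RPM), 46 in T-47D (131 RPM) and 102 in LNCaP (56.5 RPM), and no comparison was called. Its anchors in Ishikawa and T-47D also covered the MED24 promoter. THRB, at chr3:24158644-24537247, had 126 in Ishikawa (121 RPM), 4 in T-47D (11.4 RPM) and 692 in LNCaP (383 RPM). LNCaP exceeded T-47D 33.7-fold (13.1 to 124), and Ishikawa exceeded T-47D 10.6-fold (4.05 to 39.6). Within 5 Mb these ratios were 9.14 and 3.63, the second below the 4-fold limit. In LNCaP 541 of the THRB read pairs left the canonical anchor through 33 loops, the strongest (100 read pairs) spanning 357 kb to an anchor at chr3:24169228-24186256 near the far end of the gene. In Ishikawa the largest share, 69 read pairs, left an anchor over a start site 8.26 kb downstream.

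PPARG and PPARA, the fatty acid receptors of fat storage and of fat burning, were highest in Ishikawa. PPARG had 159 read pairs in Ishikawa (153 RPM), 0 in T-47D and 58 in LNCaP (32.1 RPM). The Ishikawa share was at least 17.9-fold that in T-47D and 4.76-fold that in LNCaP (3.5 to 6.54), and the latter was 3.38-fold within 5 Mb. PPARA had 116 read pairs in Ishikawa (112 RPM), 8 in T-47D (22.8 RPM) and 3 in LNCaP (1.66 RPM). Ishikawa exceeded T-47D 4.9-fold (2.4 to 11.6) and LNCaP 67.1-fold (22.4 to 330). All PPARA read pairs in Ishikawa came from an anchor 20.8 kb downstream of the canonical start site, and all in T-47D and LNCaP came from the canonical one. PPARD, the most widely expressed of the PPARs, had the lowest share in Ishikawa instead, with 9 read pairs against 21 in T-47D (6.91-fold higher, 3.03 to 17.1) and 67 in LNCaP (4.29-fold higher, 2.13 to 9.79). Within 5 Mb these ratios were 2.52 and 2.25, below the limit of a call. One PPARD loop in LNCaP, with 9 read pairs, ran 385 kb to an anchor over the promoters of both ARMC12 and FKBP5. The latter is a classical glucocorticoid and androgen target.

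VDR, the vitamin D receptor, had 310 read pairs in Ishikawa (298 RPM), 80 in T-47D (228 RPM) and 107 in LNCaP (59.3 RPM). Ishikawa exceeded LNCaP 5.03-fold (4.02 to 6.32). The log2 ratio turned to -0.49 within 5 Mb, where the loops held 25797 read pairs in Ishikawa against 2990 in T-47D and 6333 in LNCaP. The strongest VDR loop held 36 read pairs in Ishikawa against 17 in T-47D and 34 in LNCaP. In T-47D and LNCaP it ran to overlapping intergenic anchors at chr12:48415314-48418652 and chr12:48414119-48420647, which carried 31 and 34 read pairs. In Ishikawa it ran to the opposite side, 30.7 kb downstream within VDR.

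Of the oxysterol receptors, NR1H2 (LXRβ) had 0 read pairs in Ishikawa, 48 in T-47D (137 RPM) and 71 in LNCaP (39.3 RPM). The T-47D share was at least 47.4-fold and the LNCaP share at least 13.6-fold that in Ishikawa. The strongest NR1H2 loop in LNCaP, with 18 read pairs, spanned 496 kb to an anchor over the promoters of KLK2, KLK3, KLK4 and KLK15, the prostate kallikrein genes, and another of its start-site anchors reached the same place with 14 read pairs. No such loop was listed in T-47D, where the strongest ran 7.52 kb to the POLD1 promoter with 11. NR1H3 (LXRα) had 33, 87 and 246 read pairs in Ishikawa, T-47D and LNCaP, and its anchors also covered the ACP2 and MADD promoters. T-47D exceeded Ishikawa 7.81-fold (5.18 to 12) and LNCaP exceeded it 4.3-fold (2.98 to 6.38), or 3.94-fold and 3.43-fold within 5 Mb. NR1I2, the xenobiotic receptor PXR, had 31 read pairs in Ishikawa and none elsewhere, so that its share was at least 17.9-fold that in LNCaP. With promoter windows of 2 kb that log2 ratio was -0.52.

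Among the clock receptors NR1D1 (REV-ERBα), a repressor of the clock, had 0 read pairs in Ishikawa, 162 in T-47D (461 RPM) and 178 in LNCaP (98.6 RPM). T-47D was at least 160-fold and LNCaP at least 34.2-fold above Ishikawa, or at least 39.2-fold and 31.2-fold within 5 Mb. T-47D exceeded LNCaP 4.68-fold (3.76 to 5.82), but only 1.26-fold within 5 Mb. The strongest NR1D1 loops of T-47D and LNCaP, with 43 and 47 read pairs, ran 13.5 and 13.6 kb upstream to overlapping intergenic anchors. NR1D2 (REV-ERBβ) had 13 read pairs in Ishikawa against 8 in T-47D and 158 in LNCaP, where its share was 7-fold that in Ishikawa (3.98 to 13.4). Its anchors also covered the NKIRAS1 promoter. RORA and RORB, the opposing activators, were listed in Ishikawa alone, with 46 and 17 read pairs. The RORA share in Ishikawa was at least 5.18-fold that in T-47D, at least 3.28-fold within 5 Mb, and at least 26.6-fold that in LNCaP. The strongest RORA loop held 18 read pairs and ran 26.9 kb within the gene.

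Among the orphan receptors NR4A1 (NUR77), an immediate early gene, had shares within 1.15-fold of each other in the 3 lists. It had 260 read pairs in Ishikawa (250 RPM), 101 in T-47D (288 RPM) and 475 in LNCaP (263 RPM), and the T-47D to LNCaP ratio was 1.09 (0.873 to 1.36), or 0.474 within 5 Mb. NR4A2 had 48 read pairs in Ishikawa against 3 in T-47D and 4 in LNCaP. Ishikawa exceeded T-47D 5.4-fold (1.74 to 27.1) and LNCaP 20.8-fold (7.62 to 79.5), but the log2 ratio to T-47D was -1.20 within 5 Mb, where T-47D had 3 of only 77 read pairs. NR4A3 had 3 in T-47D and 14 in LNCaP. NR2F2 (COUP-TFII), a regulator of stromal and venous identity, had 0 in Ishikawa, 151 in T-47D (430 RPM) and 199 in LNCaP (110 RPM). The T-47D share was at least 149-fold and the LNCaP share at least 38.2-fold that in Ishikawa. In T-47D all 9 distal partners of NR2F2 lay upstream, between 42.3 and 1077 kb away. In LNCaP the strongest distal loop, with 27 read pairs, ran 387 kb downstream, and 2 upstream anchors overlapped those of T-47D. NR2F6 had 33 in Ishikawa against 0 in T-47D and 293 in LNCaP (162 RPM), so LNCaP was at least 19-fold above T-47D and 5.12-fold above Ishikawa (3.56 to 7.57), the latter 2.91-fold within 5 Mb. With promoter windows of 2 kb T-47D had 26 read pairs, and the log2 ratio of T-47D over LNCaP was -1.13, which is not a call. Its strongest LNCaP loop, with 60 read pairs, joined the promoters of ABHD8, DDA1 and MRPL34 across 65.6 kb.

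NR5A2 (LRH-1), which is known to drive aromatase in breast stroma, had 0 read pairs in Ishikawa, 59 in T-47D (168 RPM) and 3 in LNCaP (1.66 RPM). T-47D exceeded LNCaP 101-fold (32.9 to 504) and Ishikawa at least 58.2-fold. Its strongest loop, with 26 read pairs, ran 4.13 kb within the gene, below the shortest span of 5 kb in the LNCaP list. From another start-site anchor the same place was reached over 10.3 kb with 11 read pairs in T-47D. In LNCaP that loop held 3 read pairs over 10.1 kb. With spans of 5 kb to 2 Mb alone, all 7 calls of T-47D over LNCaP were kept. NR6A1, the germ cell nuclear factor, had 0 in Ishikawa, 92 in T-47D (262 RPM) and 76 in LNCaP (42.1 RPM). The T-47D share was 6.22-fold that in LNCaP (4.54 to 8.54), but 2.69-fold within 5 Mb. Its strongest loops in both lists ran to the promoters of ARPC5L and RPL35, 90.3 to 101 kb upstream. NR2E3, a photoreceptor regulator, had 36 read pairs in Ishikawa alone, at least 4.05-fold above T-47D and at least 20.8-fold above LNCaP. NR2C1 had 3, 3 and 24, and NR2C2 38, 15 and 13, in Ishikawa, T-47D and LNCaP. NR2C1 was thus 4.61-fold higher in LNCaP than in Ishikawa (1.4 to 23.9) and NR2C2 5.07-fold lower (2.64 to 10.4), and within 5 Mb these were 2.97-fold and 3.09-fold. The remaining orphan receptors had 7 read pairs or fewer in their lists, NR2F1 with 7 and NR5A1 with 3 in T-47D and NR2E1 with 3 in Ishikawa.

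**Figure D2:**
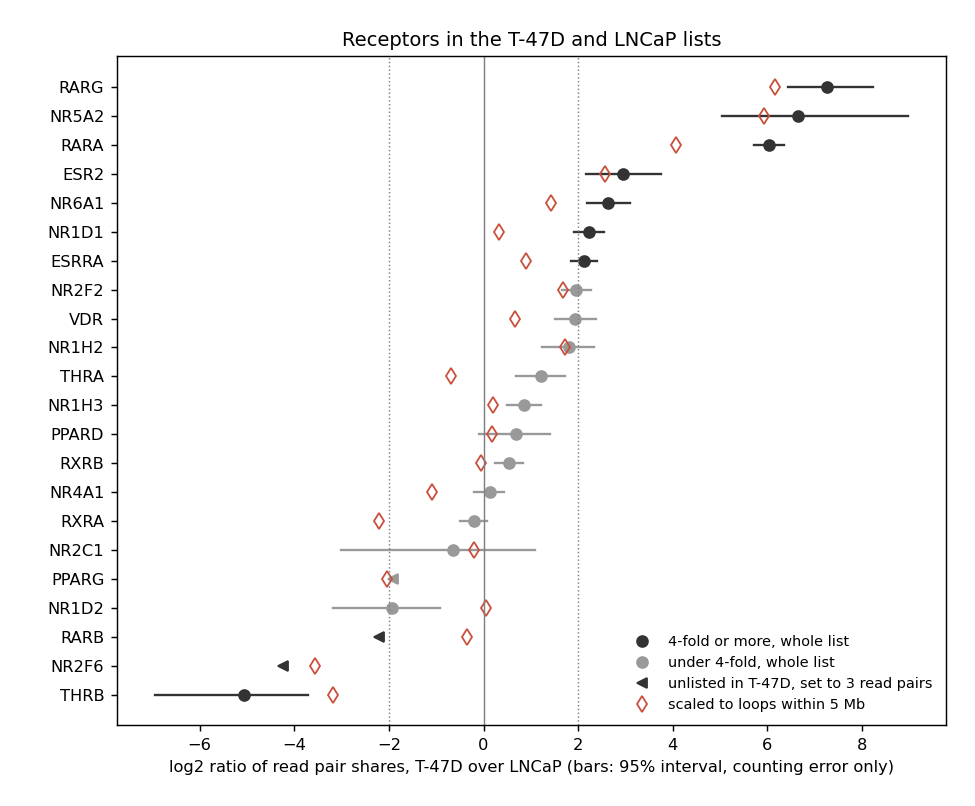
Log2 ratio of T-47D over LNCaP shares for the 22 receptors tested, with 95% intervals for counting error, beside the ratio with shares taken within 5 Mb. RARG, NR5A2 and RARA lie furthest toward T-47D (7.26, 6.66 and 6.03) and THRB furthest toward LNCaP (-5.07), and ESRRA, NR1D1 and NR6A1 move inside the 4-fold limit with local shares.

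The start sites that carried the loops were compared next. Anchors over the Ensembl canonical start site held 30.1% of receptor read pairs in Ishikawa against 52.5% in T-47D and 62.5% in LNCaP, where a loop that leaves 2 start-site anchors of a receptor counts for each. Over all protein-coding genes the same shares were 54%, 83.1% and 77.3%. Receptors with loops but none at the canonical start site numbered 5 of 27 in Ishikawa (18.5%; all genes, 22.8%), 4 of 26 in T-47D (15.4%; all genes, 7.58%) and 6 of 27 in LNCaP (22.2%; all genes, 7.17%). The number of annotated start sites differs between genes and was not matched in this comparison. RARA had 10 annotated start sites, RXRA 5, THRB 18, PPARG 31 and NR4A1 19.

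PPARG used several start sites. Its Ishikawa read pairs left 5 anchors, 39 at the upstream promoter shown above, 99 at a start site 19.8 kb downstream of the canonical one, and 3, 21 and 22 at the others. Its LNCaP read pairs left start sites 116 and 136 kb downstream, with 47 and 21. VDR read pairs in Ishikawa left anchors 38.1 kb upstream (111) and 25.9 kb downstream (212) of the canonical start site, which itself had 7. In T-47D the canonical start site had 48 and the upstream one 37, and in LNCaP all 107 left the canonical anchor. For NR4A1 the canonical anchor held 18 read pairs in Ishikawa against 101 in T-47D and 257 in LNCaP, whereas its total share in Ishikawa was 0.95 of that in LNCaP (0.813 to 1.11), or 0.324 within 5 Mb. The largest NR4A1 anchor in Ishikawa, with 164, lay over start sites from 1.98 kb downstream, and in LNCaP an anchor 13.7 kb upstream held 210. With the canonical start site alone the VDR ratio of Ishikawa over LNCaP became -3.14 on the log2 scale. The PPARA ratio of Ishikawa over T-47D became -2.98 at most, with 0 read pairs in Ishikawa against 8. With that start site alone, the calls of Ishikawa kept 1 of 7 over T-47D and 4 of 12 over LNCaP. Those of T-47D kept 6 of 7 over LNCaP and 9 of 12 over Ishikawa, and those of LNCaP 2 of 3 over T-47D and 11 of 13 over Ishikawa.

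**Figure D3:**
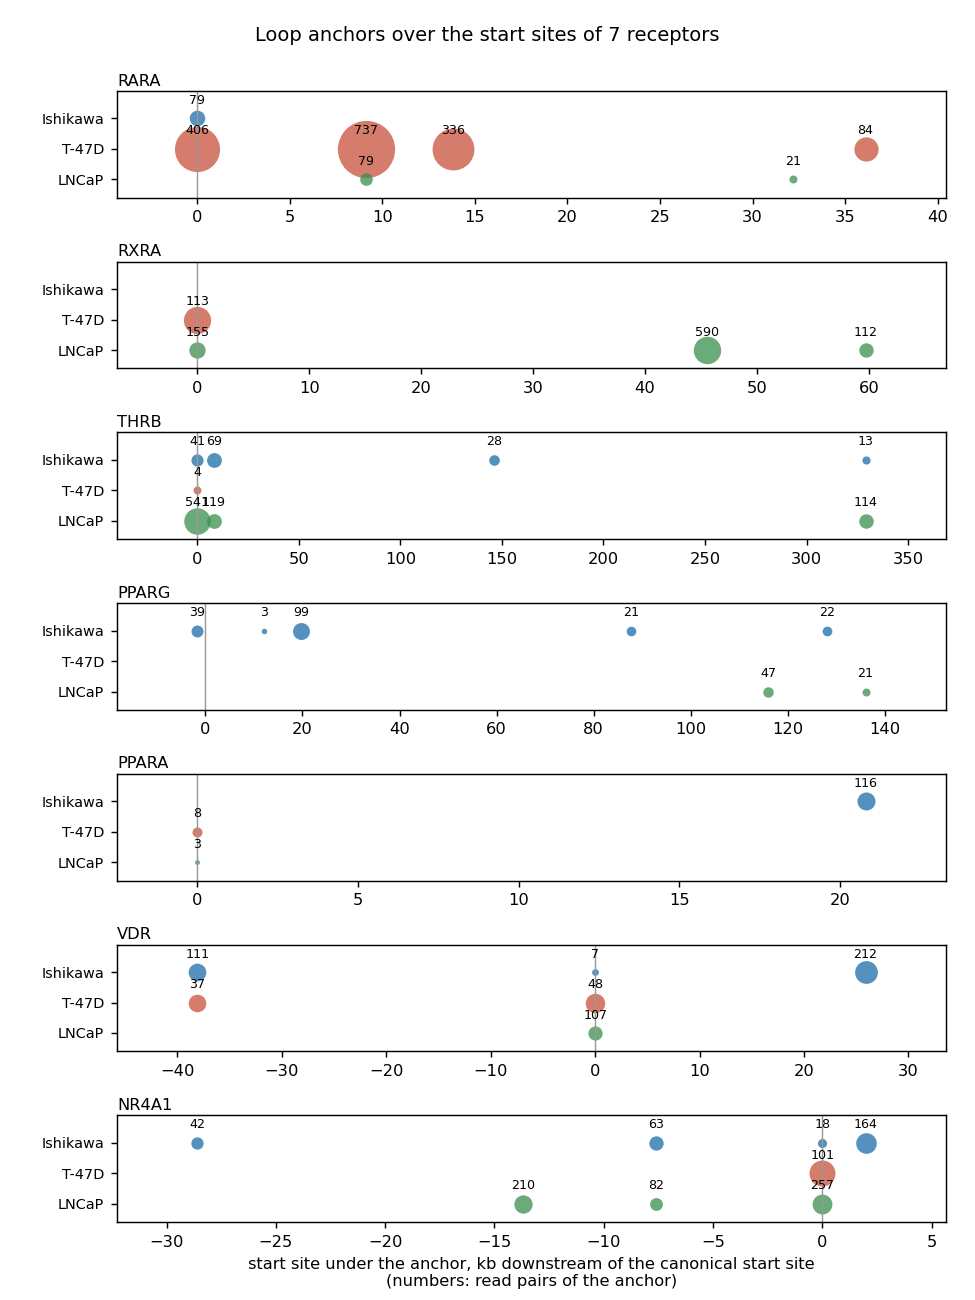
Anchors over start sites of 7 receptors in each list, placed at the start site under the anchor nearest to the canonical one (kb downstream of it on the gene's strand). Marker area grows with RPM, and the numbers are read pairs of each anchor. RXRA loops left the upstream start site in T-47D (113) but mainly an anchor over inner start sites in LNCaP (590), and PPARA loops left different start sites in Ishikawa (116) and in the other lists (8 and 3).

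Some receptors lie close together and were joined. THRA, NR1D1 and RARA lie within chr17:38214543-38513895, and in T-47D loops ran from NR1D1 to RARA (3 loops, 12 read pairs), from THRA to NR1D1 (4) and from THRA to RARA (3). In LNCaP NR1D1 was joined to RARA with 6 read pairs and to THRA with 17. An intergenic anchor at chr17:38268573-38272383 was a partner of all 3 in T-47D, with 43 read pairs to NR1D1, 15 to RARA and 9 to THRA. An overlapping LNCaP anchor had 47 to NR1D1 and 12 to THRA. On chromosome 3, NR1D2, THRB and RARB follow each other. The LNCaP anchor at chr3:24169228-24186256, inside THRB, had 179 read pairs to THRB, 38 to NR1D2 and 27 to RARB. In LNCaP 4 distal anchors were partners of all 3 receptors, and loops joined THRB directly to NR1D2 (2 loops, 9 read pairs) and to RARB (4). In Ishikawa a single distal anchor was shared, between THRB (3) and NR1D2 (5). NR5A1 and NR6A1, neighbours on chromosome 9, shared a T-47D distal anchor with 3 and 5 read pairs. These genes are neighbours, and how often neighbours of other families share anchors was not measured.

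**Figure D4:**
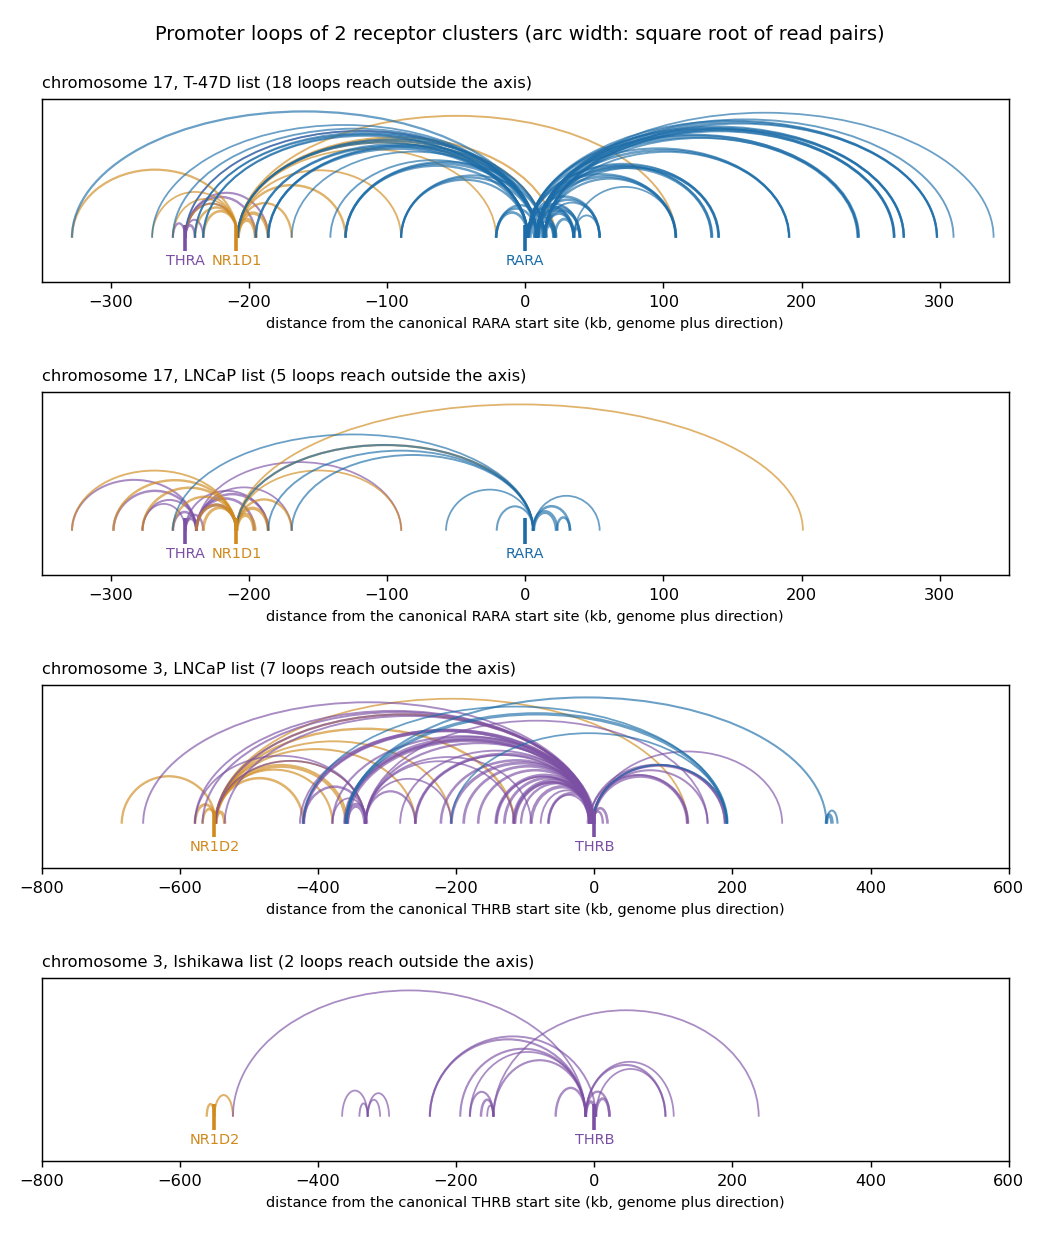
Promoter loops of THRA, NR1D1 and RARA (chromosome 17) and of NR1D2, THRB and RARB (chromosome 3), by distance from the canonical start site of RARA or THRB in kb along the genome. Arc width is the square root of the read pairs, arc colour is the receptor, and blue arcs in the lower panels are RARB, whose canonical start site lies outside the axis. RARA arcs crowd the T-47D panel, and purple THRB arcs the LNCaP panel.

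Distal partners, which hold no protein-coding promoter, were linked to 26 receptors in Ishikawa (60.5%; all genes, 52.5%), 22 in T-47D (51.2%; all genes, 34.7%) and 25 in LNCaP (58.1%; all genes, 52.4%). Links numbered 144, 96 and 133. Their median distance was 60.1, 96.2 and 143 kb, against 45, 90.1 and 126 kb over all genes. The partner lay within the receptor's own gene in 38.9%, 27.1% and 25.6% of links, against 29.1%, 16.3% and 17.7% over all genes. Receptor genes differ in length, which was not matched. Between T-47D and LNCaP, 25 distal links were shared, 29.8% of those in T-47D and 25.5% of those in LNCaP. Over all genes these shares were 34.5% and 13.3%. Ishikawa shared 9.41% of its links with T-47D (15.4% of the latter) and 14.1% with LNCaP (15.7%). Over all genes these were 8.11% and 12.8%, and 15% and 9.83%. Across the 43 receptors Spearman's rho of shares was 0.698 between T-47D and LNCaP, 0.154 between Ishikawa and T-47D and 0.295 between Ishikawa and LNCaP, beside 0.687, 0.314 and 0.333 over all genes. Many receptors were at 0 in both lists of a pair. Over the 30, 36 and 34 receptors with a loop in at least 1 list of the pair, rho was 0.43, -0.0574 and -0.0214. Receptors in shared anchors are not independent, so these are descriptions.

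Distal anchors were searched on both strands for exact response elements. The estrogen response element GGTCANNNTGACC was not found in the 143 Ishikawa, 85 T-47D or 115 LNCaP distal anchors of the receptors. In all distal anchors it occurred 0.947, 2.68 and 0.732 times per Mb, and the receptor anchors covered 1.04, 0.266 and 0.485 Mb. The direct repeats with 1 and 4 bases between copies of AGGTCA were not found either. Over all distal anchors of the lists, in the same order, the former occurred 0.371, 0.881 and 0.482 times per Mb and the latter 0.804, 0.919 and 0.908 times. Only 2 matches were present. A distal anchor of NR3C2 in Ishikawa, joined by 4 read pairs, held a direct repeat with 5 bases between copies, the spacing read by retinoic acid receptors, at chr4:149250196-149250212 on the plus strand. All Ishikawa distal anchors held this repeat 0.275 times per Mb.
NR3C2 distal anchor, direct repeat: AGGTCAATCATAGGTCA
A distal anchor of PPARD in LNCaP, within FKBP5 and joined by 4 read pairs, held the steroid response element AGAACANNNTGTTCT at chr6:35569859-35569873. All LNCaP distal anchors held that element 0.565 times per Mb.
PPARD distal anchor, steroid response element: AGAACACCCTGTTCT
Capitals mark the whole match. These searches concern letters in the reference genome, and binding was not measured here.

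Coregulators, the proteins that receptors recruit, were taken as 20 genes. Of the 16 tested between T-47D and LNCaP, 6 were higher in LNCaP and 0 in T-47D (all genes, 16.8% and 18.7%). The highest ratios were those of NCOR1, a corepressor (3 read pairs against 633, 41.1-fold, 14 to 200), and SAFB (10 against 360, 7-fold, 3.76 to 14.7). Between Ishikawa and T-47D 4 of 14 were higher in Ishikawa, led by CREBBP (130 against 3, 14.6-fold, 4.9 to 71.9) and NCOR1 (78 against 3, 8.78-fold, 2.9 to 43.5), and 3 in T-47D, led by NRIP1 (0 against 43, at least 42.5-fold) and NCOA7 (3 against 27, 26.7-fold, 8.2 to 137). Among all genes, 20% and 44.4% were called in these directions. Between Ishikawa and LNCaP 1 of 18 was higher in Ishikawa, CREBBP (130 against 38, 5.94-fold, 4.11 to 8.76), and 6 in LNCaP, led by NRIP1 (0 against 580, at least 111-fold) and NCOA7 (3 against 493, 94.7-fold, 32.2 to 461). Here the shares of all genes called were 22.2% and 46.5%. NRIP1, a ligand-dependent corepressor, thus had no listed promoter loop in Ishikawa.

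Receptor targets and enzymes that make or clear their ligands were taken as 28 genes. Of 17 tested between T-47D and LNCaP, CYP27B1, which activates vitamin D, was the only gene higher in T-47D (41 against 0, at least 70.2-fold). LNCaP was higher for 6, led by the retinaldehyde dehydrogenase ALDH1A2 (568 against 0, at least 36.8-fold) and the glucocorticoid target TSC22D3 (511 against 7, 14.2-fold, 6.84 to 35.5). Among all genes, 18.7% were called higher in T-47D and 16.8% in LNCaP. Ishikawa exceeded T-47D in 3 of 17, led by ALDH1A2 (469 against 0, at least 52.8-fold) and the cholesterol exporter ABCG1 (126 against 8, 5.32-fold, 2.62 to 12.6). T-47D exceeded Ishikawa in 5, led by FKBP5 (136 against 9, 44.8-fold, 22.9 to 100) and CPT1A (54 against 14, 11.4-fold, 6.26 to 22.3). The shares of all genes called were 20% for Ishikawa over T-47D and 44.4% for the reverse. Ishikawa exceeded LNCaP in 6 of 22, led by CYP27B1 (107 against 0, at least 61.9-fold) and ALDH1A1 (43 against 0, at least 24.9-fold). LNCaP exceeded Ishikawa in 10, led by ALDH1A3 (700 against 0, at least 134-fold) and TSC22D3 (511 against 0, at least 98.2-fold). For all genes these shares were 22.2% for Ishikawa over LNCaP and 46.5% for the reverse. The retinoic acid synthases thus differed by line, with ALDH1A2 listed for both Ishikawa and LNCaP, ALDH1A1 in Ishikawa alone and ALDH1A3 mainly in LNCaP. The classical targets CYP24A1, CYP26A1 and CYP26B1 had no loop in any list.

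The labels were checked against markers. In Ishikawa PAX8 had 162 read pairs, EMX2 103, MSX1 72 and SOX17 27, against 0 to 9 in the other lists. In T-47D GATA3 had 1063 and TRPS1 2557, but TFAP2B was at 0 in every list and MUCL1 had 57 read pairs in Ishikawa but 0 in T-47D, against its choice as a T-47D marker. In LNCaP STEAP2 had 5077, and KLK3 and KLK2 had the same 2936. A single LNCaP anchor covered the promoters of KLK3 and KLK2, so they are not separate markers. Of the leukocyte markers CD3E had 13 read pairs and PTPRC 3 in Ishikawa, both were at 0 in the other lists, and CD14 was at 0 in every list. Of 3 stromal markers COL1A1 had 9, 58 and 5 read pairs in Ishikawa, T-47D and LNCaP, and PDGFRB and CDH5 were at 0. PECAM1 was not analysed here. The part of other cells in the receptor values was not tested.

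The Ishikawa list consists of 4 separately sorted parts, with 90130 to 442087 read pairs, and no source assigns a part to a sample or treatment. They give the only view of spread within a line. RARG ranged from 276 to 464 RPM over the parts, VDR from 233 to 389, NR4A1 from 170 to 422, THRA from 70.7 to 201, PPARA from 66.6 to 155, THRB from 44.4 to 143, PPARG from 50.2 to 217 and RARA from 54.3 to 138. Of the 27 receptors listed in Ishikawa, PPARD, NR2C1 and NR2E1 had loops in 1 part and RARB in 2. The RARA range lay below the T-47D value of 3220 RPM in every part, and the RARG range above the LNCaP value of 6.65. The THRA range in contrast took in the T-47D value of 131, and the NR4A1 range took in those of both other lists.

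**Figure D5:**
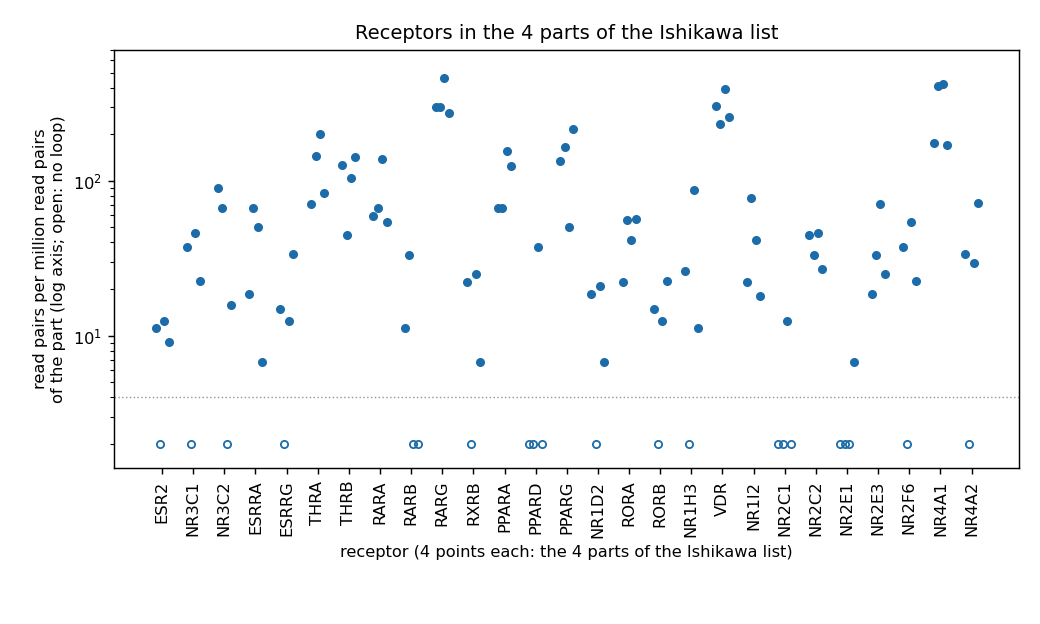
Promoter loops as read pairs per-million read pairs of the part (log axis), for Ishikawa receptors in each of the 4 separately sorted parts of the list, which no source assigns to samples. RARG lies between 276 and 464 in the parts and VDR between 233 and 389, whereas PPARG spreads from 50.2 to 217.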

How the data were processed

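Loops were analysed from 7 H3K27ac HiChIP samples. Per the study's methods the authors aligned reads to hg19 with HiC-Pro, called loops with hichipper, removed loops with fewer than 3 reads or above their false discovery limit, and 1 list per line was deposited. The deposited value is a count of read pairs per loop, neither scaled for depth nor accompanied here by an error rate. Tool versions are not given in the sources used here. A GATC of GRCh37 lay within 5 bases of 99.99% or more of the anchor edges of each list, so the hg19 coordinates were used with that genome and are counted from 1. Ishikawa rows of the same anchor pair were summed over the 4 parts. Pairs of an anchor with itself, which the LNCaP list does not hold, and pairs across chromosomes were left out.

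Start sites came from GENCODE 44 lifted to GRCh37 (20163 protein-coding genes). The share of a gene is its promoter read pairs over those of the list. Intervals are exact Poisson intervals for counts and exact conditional binomial intervals for ratios (95%). A 4-fold ratio with 20 or more read pairs in the list with the higher share was called, with counts under 3 set to 3. No test was made, since there was 1 list per line. Promoter sequences of 38 of the 43 receptors were matched, and those of the other 5 are not analysed here. Receptors with 20 read pairs or more in a list are given with their values, and the strongest loop of those past the fold or with 50 or more. From gene lists the pair of genes with the highest ratio in each direction is named, and loops of lower rank and start sites were named after their values were seen. The receptors and gene lists were chosen with earlier results of these data known. Python 3.11.15, numpy 2.4.6 and scipy 1.17.1 were used, and the procedure was tested on simulated data. The simulated lists were both drawn from the LNCaP anchors, so differences in anchors between lists were not covered. Alternatives were minima of 5 and 10 read pairs per loop or of 10 in the higher list, thinning to the shallowest list, windows of 2 kb, 1 start site per gene, Ishikawa loops in 2 or more parts, spans of 20 kb to 1 Mb, local shares within 5 Mb and centring. A span of 5 kb to 2 Mb and the canonical start site alone were added after the data were seen. Some cell type markers are not reported here.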

Additional observations from a re-analysis of the deposited data

Results flagged for a closer look

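Pairs of an anchor with itself lie outside the loops compared above, and they were looked at because they are a signal that no comparison used. In the Ishikawa list such pairs at anchors over receptor promoters held 583 read pairs, at 19 receptors (44.2%, against 37.3% of all genes). In T-47D they held 1186 read pairs, at 24 receptors (55.8%, against 46.3% of all genes), of which 417 were at RARA. HNF4G and NR3C2 had such pairs in T-47D but no loop there, with 4 read pairs for NR3C2. The LNCaP list holds no pair of this kind, so no comparison with it could be made. What these pairs measure was not tested.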

How the results depend on the processing

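Of 54 receptor ratios called, 11 were called in each of the 12 alternative settings and 5 reversed in at least 1. Those called in each setting were RARA, RARG and THRB between T-47D and LNCaP, RARA, RXRB, NR1D1 and NR6A1 between Ishikawa and T-47D, and RARG, RXRB, NR1D1 and NR2F2 between Ishikawa and LNCaP. With at least 10 read pairs per loop, receptors with a promoter loop numbered 16 in Ishikawa and 14 in T-47D. Called receptors are given with the number tested and the share of all genes called. Ishikawa exceeded T-47D in 4 of 24 with at least 5 read pairs per loop (23.4%), 3 of 16 with at least 10 (31.2%), 3 of 19 after thinning (13.5%), 3 of 20 with 1 start site per gene (15.3%), 1 of 17 with the canonical start site (14.5%) and 11 of 27 after centring (36.9%). Ishikawa exceeded LNCaP in 4 of 20 with at least 10 read pairs per loop (23%), 6 of 16 after thinning (23.1%) and 5 of 20 with the canonical start site (15.6%). LNCaP exceeded Ishikawa in 8 of 29 with local shares (42.5%) and 6 of 30 after centring (21.4%), and T-47D exceeded LNCaP in 4 of 21 with local shares (16.1%). Log2 ratios reversed to -0.52 for NR1I2 (Ishikawa over LNCaP, 2 kb windows), to -2.98 at most for PPARA (Ishikawa over T-47D, both with 1 start site per gene and with the canonical one), to -1.20 for NR4A2 (Ishikawa over T-47D, local shares), to -0.49 and -3.14 for VDR (Ishikawa over LNCaP, local shares and canonical start site), and to at least 1.80 for RARB (Ishikawa over LNCaP, canonical start site). Fewer start sites or loops counted give fewer read pairs by construction, and the cause was not tested otherwise. Thinning moved the median log2 ratio of all genes from -0.08 to 1.12 for T-47D over LNCaP, so its calls are not comparable with the main ones. Depth limits the weaker receptors, since a loop with fewer than 3 read pairs is not listed, in Ishikawa perhaps within each part. No paired analysis was possible because the deposited lists combine replicates, and for the same reason no replicate could be left out.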
